A study of Mus musculus with 29 samples.

Results

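Complex I of the mitochondrial respiratory chain was described here through the 42 genes whose symbol starts with Nduf, out of 29955 genes in the expression table of a mouse heart failure series. The rule used the symbol alone and no measured value, and all 42 genes had a mean of at least 0.5 FPKM (fragments scaled for transcript length and for the number of mapped fragments) and entered the tests. Mice of strain C57BL6 (C57BL/6J in the study's methods), male and 3 months old at the start, drank water with 0.3 mg/ml L-NAME, which blocks nitric oxide synthesis, and 1% NaCl for 5 weeks, and from the end of the first week an osmotic pump delivered 0.7 mg/kg of angiotensin II per day over 28 days. Hearts were taken during induction at week 3 (HF week 3, 2 libraries) and at its end (HF week 5, 3 libraries). Others were taken after the agents were withdrawn, at weeks 7 (2 libraries), 9 (2 libraries), 11 (3 libraries), 13 (2 libraries) and 19 (5 libraries), counted from the start of induction. The labels count the recovery groups from withdrawal, as weeks 2, 4, 6, 8 and 14. The controls were 5 libraries of mice matched in age to week 19 (Control week 19), for which the labels name none of these agents. HF week 5 mice were therefore 14 weeks younger than the controls used here, so that age and heart failure cannot be told apart in the comparisons with control. All groups before week 19 were younger than these controls, and only Recovery week 19 matched them. Recovery week 19 mice were also 14 weeks older than HF week 5 mice, so age and recovery cannot be told apart there. Any other comparison between different weeks also differs in age. The labels give whole ventricle as the tissue and whole heart as the source, whereas the study's methods describe frozen apical portions and polyadenylated RNA. Libraries are numbered by their column in the table, and the labels do not say which of the study's 4 cohorts each mouse came from.

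Complex I takes electrons from NADH, passes them along iron-sulfur clusters to ubiquinone and pumps protons across the inner mitochondrial membrane. Its N module holds the NADH site, its Q module the ubiquinone site, and its proximal and distal membrane arms the proton pumps, of which the pumping subunits themselves are encoded by mitochondrial DNA. The remaining subunits and the assembly factors come from the nucleus, and heart muscle is among the tissues richest in them. By these roles the 42 genes comprised 10 N module subunits, 6 Q module subunits, 9 subunits of the proximal and 11 of the distal membrane arm, 4 assembly factors, and 2 genes, Ndufa4 and Ndufa4l2, that carry the symbol but are not counted as complex I subunits. Ndufa4 is known as a subunit of cytochrome c oxidase.

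Promoters are shown because in some libraries most members lay on the same side of the control mean. In the 3 HF week 5 libraries 38, 15 and 20 of the 42 were below it, in the 5 Recovery week 19 libraries 42, 14, 40, 42 and 3, and in the 5 controls themselves 35, 21, 35, 33 and 7. The RefSeq table (build GRCm38.p6) held a promoter for 37 of the 42 genes, and Ndufs1 was not among them. The sequences printed are the 250 bases before the start of 3 members. Ndufa10 and Ndufc2 are 2 of the 3 members whose RNA differed between HF week 5 and control, and Ndufa8 carries a match to the motif of nuclear respiratory factor 1, a regulator of respiratory chain genes. Capitals mark that match and the rest is in lower case. Ndufa10 lies at chr1:92473759-92474008 on the minus strand, Ndufc2 at chr7:97399753-97400002 on the plus strand and Ndufa8 at chr2:36049339-36049588 on the minus strand.
Ndufa10: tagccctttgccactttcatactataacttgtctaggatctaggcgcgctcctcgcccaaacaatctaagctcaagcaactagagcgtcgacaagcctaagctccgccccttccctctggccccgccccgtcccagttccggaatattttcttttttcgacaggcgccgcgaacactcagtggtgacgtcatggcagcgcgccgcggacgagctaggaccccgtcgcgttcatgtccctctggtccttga
Ndufc2: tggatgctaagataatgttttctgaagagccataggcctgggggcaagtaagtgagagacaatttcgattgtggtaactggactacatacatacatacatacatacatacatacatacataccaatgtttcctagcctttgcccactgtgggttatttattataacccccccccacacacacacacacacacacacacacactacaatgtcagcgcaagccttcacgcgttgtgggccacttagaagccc
Ndufa8: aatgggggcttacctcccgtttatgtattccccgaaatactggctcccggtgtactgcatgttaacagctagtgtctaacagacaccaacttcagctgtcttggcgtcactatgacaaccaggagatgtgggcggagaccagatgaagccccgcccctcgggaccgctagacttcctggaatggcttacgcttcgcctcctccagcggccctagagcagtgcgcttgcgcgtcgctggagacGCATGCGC

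4 motifs were searched on both strands of these windows. A member was counted if any of its listed promoters matched, whereas the share over all was counted per promoter. The shares are therefore not like measures. GCGCATGC, the nuclear respiratory factor 1 motif, was found for 4 of the 37 genes, Ndufa6, Ndufa8, Ndufa11 and Ndufaf4. This is 10.8% of the genes, against 2.27% of all 32536 promoters in the table. CCGGAAG, an ETS family motif of the kind bound by Gabpa, was found for 10.8% of the 37 genes, Ndufb6, Ndufb7, Ndufs3 and Ndufaf1, against 6.95% of all promoters. ATGGCGG, a YY1 motif, was found in Ndufa1, Ndufa5 and Ndufa7, or 8.1% against 2.23%. AAGGTCA, the motif of the oestrogen-related receptors, was found in Ndufb2, Ndufb4 and Ndufs5, or 8.1% against 4.09%. None of the 4 motifs was found in the windows of Ndufa10 and Ndufc2. A match is a description of the letters, and no match says only that they are not in the window.

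The members spanned a wide range of levels in the heart. In the controls the highest was Ndufa3, a small subunit of the proximal membrane arm, at 7936 ± 956 FPKM (SD, n = 5), followed by Ndufa4 at 5584 ± 1222, Ndufs6 of the N module at 3075 ± 548, Ndufa5 of the Q module at 2559 ± 462 and Ndufb9 of the distal membrane arm at 2423 ± 435. Ndufa5 and Ndufb9 differed by less than the SD of either, and Ndufs6 exceeded Ndufa5 by about their SDs, while Ndufa3 and Ndufa4 stood apart from these. The lowest were assembly factors, which build the complex and are not part of it when finished. Ndufaf4 stood at 13.8 ± 2.42 FPKM (SD, n = 5), Ndufaf1 at 37.2 ± 1.60 and Ndufaf3 at 41.6 ± 2.02. Ndufa4l2, a relative of Ndufa4 known to be induced by hypoxia, was between them at 36.5 ± 5.01 and did not differ from Ndufaf1 beyond this spread. Over each role, the median control level was 1281 FPKM in the N module, 815 in the Q module, 1160 in the proximal and 1849 in the distal membrane arm, and 39.4 among the assembly factors.

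The nuclear core subunits carry the flavin and the iron-sulfur clusters. In the controls Ndufs7 stood at 1596 ± 38.4 FPKM (SD, n = 5), Ndufv1 at 768 ± 17.98, Ndufs3 at 758 ± 28.4, Ndufs8 at 642 ± 37.5 and Ndufv2 at 416 ± 46.6. Ndufs1, the largest core subunit, was the lowest of these at 153 ± 16.5, and it ranked number 37 of the 42 members by mean level. Together the 42 genes made up between 4.16% and 8.00% of the summed FPKM of a library. That sum includes Myh6, which was listed at 301793 FPKM in the library with the lowest share and at 0 in that with the highest. Parts of some transcripts are shared with other annotated genes. Of all 50-base stretches, 41.2% of those in Ndufs5, 37.0% in Ndufb4, 35.8% in Ndufs3 and 26.2% in Ndufa12 also occur in another gene (GENCODE M21), so that their values are uncertain. For Ndufs1, Ndufa10 and Ndufc2 the share was 0.

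**Figure D1:**
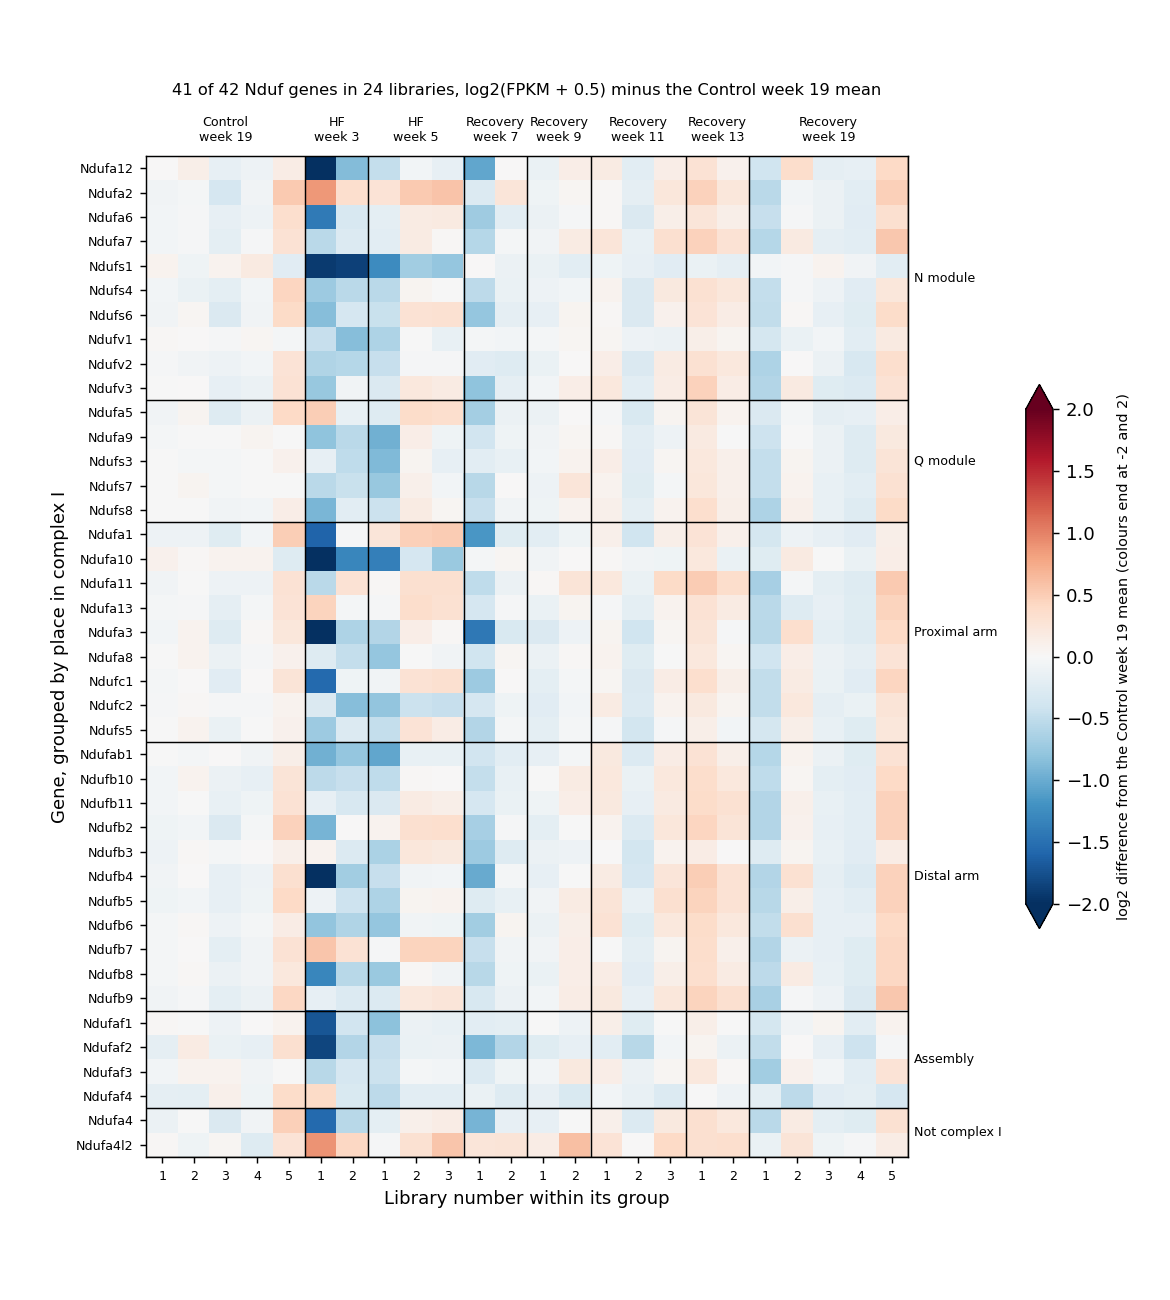
Heat map of 41 of the 42 Nduf genes (rows, grouped by role) in the 24 libraries (columns, grouped by week), coloured by log2(FPKM + 0.5) minus the mean of the 5 Control week 19 libraries. Most rows are low in both HF week 3 libraries, and Ndufs1 is low in all 5 HF libraries and near control in the recovery libraries.

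The comparison of HF week 5 with Control week 19 asks how the end of induction differed from the control heart. Of the 42 members, 3 were lower and 0 higher, with 39 not passing the test (limma on log2(FPKM + 0.5), Benjamini-Hochberg adjusted over 12759 genes, adjusted p under 0.05). Over all genes tested 12.4% were lower and 11.6% higher, so the share of members called was below that background. The count of lower members moved with the scaling: it was 14 under quantile normalization, where 15.4% of all genes were lower, and 12 after a per-library correction for GC content and length, where 15.8% were. At an unadjusted p under 0.05, 6 members were lower and 1 higher, against 17.7% and 18.8% of all genes. The members' median difference was -0.16 on the log2 scale, with 28 of 42 below control, where the median of all genes was 0.04. The 3 that fell were Ndufs1 of the N module and Ndufa10 and Ndufc2 of the proximal membrane arm. In all of these bulk samples, fewer cells of a type and less RNA per cell cannot be told apart.

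Ndufs1 holds 3 of the iron-sulfur clusters on the electron path. Its levels in the 5 control libraries were 159.5, 144, 161, 172 and 129.6 FPKM. In HF week 5 they were 63.7, 93.7 and 88.8 FPKM, all below every control. The difference was -0.91 (log2 scale, SE 0.12, limma adjusted p = 6.87e-05). It passed the threshold in each of the 18 alternative settings run, which left between -1.01 and -0.68.

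Ndufa10 is an accessory subunit at the matrix side of the proximal membrane arm. It read 399, 379, 394, 394 and 313 FPKM in the controls. The HF week 5 libraries gave 144, 297 and 223 FPKM, again without overlap with the controls. The log2 difference was -0.82 (SE 0.21, limma adjusted p = 0.00907). The first HF week 5 library decided this call: without it the difference was -0.54 with an adjusted p of 0.104 (limma).

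Ndufc2 is an accessory subunit of the proximal membrane arm needed for joining its intermediates. The controls held 571, 584, 565, 566 and 603 FPKM. In HF week 5 its levels were 334.5, 429 and 417 FPKM, below all 5 controls. The log2 difference was -0.56 (SE 0.16, limma adjusted p = 0.0186). Without the first HF week 5 library it was -0.45 with an adjusted p of 0.124 (limma).

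The other members did not pass the test at HF week 5. Among the core subunits the log2 difference was -0.33 for Ndufs3, -0.26 for Ndufv1, -0.24 for Ndufs7, -0.17 for Ndufv2 and -0.08 for Ndufs8. Ndufv1, which binds the flavin that accepts electrons from NADH, stood at 502, 767 and 689 FPKM against 744.5 to 786 in the controls. In the first HF week 5 library it was well below the controls, in the second inside their range and in the third below it. The assembly factors lay between -0.36 for Ndufaf1 and -0.18 for Ndufaf3, with 0 of 4 called. Ndufa4 differed by 0.02 and Ndufa4l2 by 0.28. By role, the median was -0.08 in the N module, -0.27 in the Q module, -0.02 in the proximal arm, -0.16 in the distal arm and -0.28 among the assembly factors.

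**Figure D2:**
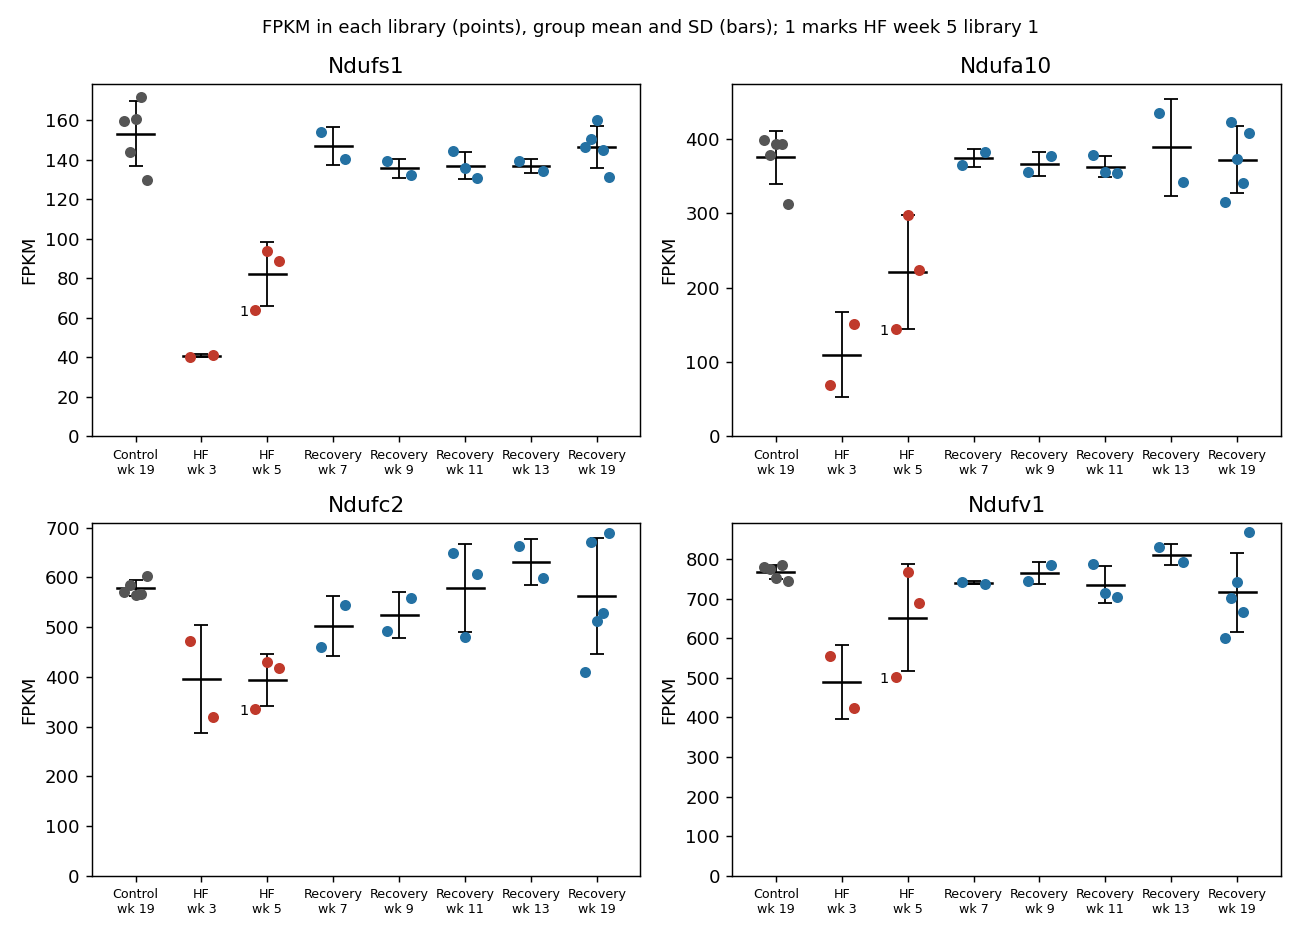
FPKM of Ndufs1, Ndufa10, Ndufc2 and Ndufv1 in each of the 24 libraries by group, with points for libraries and the mean ± SD of each group, the first HF week 5 library being marked. Ndufs1 lies between 40.2 and 93.7 in the HF libraries and between 129.6 and 172 in all control and recovery libraries.

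The 3 HF week 5 libraries did not stand alike. In log2 units relative to the control mean, the median of the 42 members was -0.47 in the first library, 0.10 in the second and 0.01 in the third. The controls ranged from -0.13 to 0.26 in this measure. Without the first library, 1 member (Ndufs1) was lower in place of 3, and the members' median was 0.05. The first library also carried RNA that defines atrial muscle in a tissue labelled as ventricle. Myl7, the atrial myosin light chain, stood at 18387.6 FPKM in it, at 152 and 6.16 in the other 2, and at no more than 1.12 in the controls. All 5 atrial markers of the fixed list were in the table, and their summed level was 81735 FPKM in that library against 2229.5 to 2515 in the other 2 and 89.6 to 349 in the controls. Of that sum, Nppa alone made up 2099.8 and 2214 FPKM in the other 2 and 81.1 to 344.5 in the controls. The part of the atrial markers in the members' values was not tested, beyond the values given without the first library. Of the other marker lists, 6 of 8 fibroblast, 4 of 7 endothelial, 3 of 5 smooth muscle and 0 of 7 macrophage markers were higher at HF week 5 relative to control, with Pln the 1 cardiomyocyte marker of 12 that was lower (limma, adjusted p under 0.05). The 2 cardiomyocyte markers called higher, Mb and Myl2, were listed at 0 in every control and are not read as a rise. Myh6 was listed at 0 in every control, HF week 5 and Recovery week 19 library, and Mb also in every Recovery week 19 library. Of the erythroid list 0 of 2 tested markers passed, and of the brown fat list 1 of 3 was higher, Ucp1, which defines brown fat and read 13.03 FPKM in the first HF week 5 library, 1.68 and 0.292 in the other 2 and 0 in every control. The summed level of that list was 8576 FPKM in the first HF week 5 library against 11945 to 17758 in the controls, nearly all of it Cox8b, which is also on the complex IV list. The part of these markers in the members' values was not tested.

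Ndufs1 was also measured relative to the other members, a setting added after the data were seen. Its difference from the control mean, less the median of the 42 members' differences in the same library, was -0.78, -0.80 and -0.79 (log2) in the 3 HF week 5 libraries and -1.25 and -1.47 in the HF week 3 libraries. In every control and recovery library it was between -0.52 and 0.48. The 3 HF week 5 values of Ndufs1 thus differed little from each other, although the libraries' medians did. A fit was made on a related scale, in which each library was centred on the median level of its 42 members, so that its values are not those just given. It gave 7 members higher and 2 lower at HF week 5, where 11.7% of all genes were higher and 3.32% lower. Centring on these same members places them on both sides of their own median by construction, so the split itself is no result. The 2 lower were Ndufs1 at -0.68 (limma adjusted p = 0.0148) and Ndufa10 at -0.59 (limma adjusted p = 0.0215). The 7 higher were Ndufa1, Ndufa2, Ndufa11, Ndufa13, Ndufb2, Ndufb7 and Ndufa4l2, named here after their values were seen, with log2 differences between 0.44 and 0.68.

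**Figure D3:**
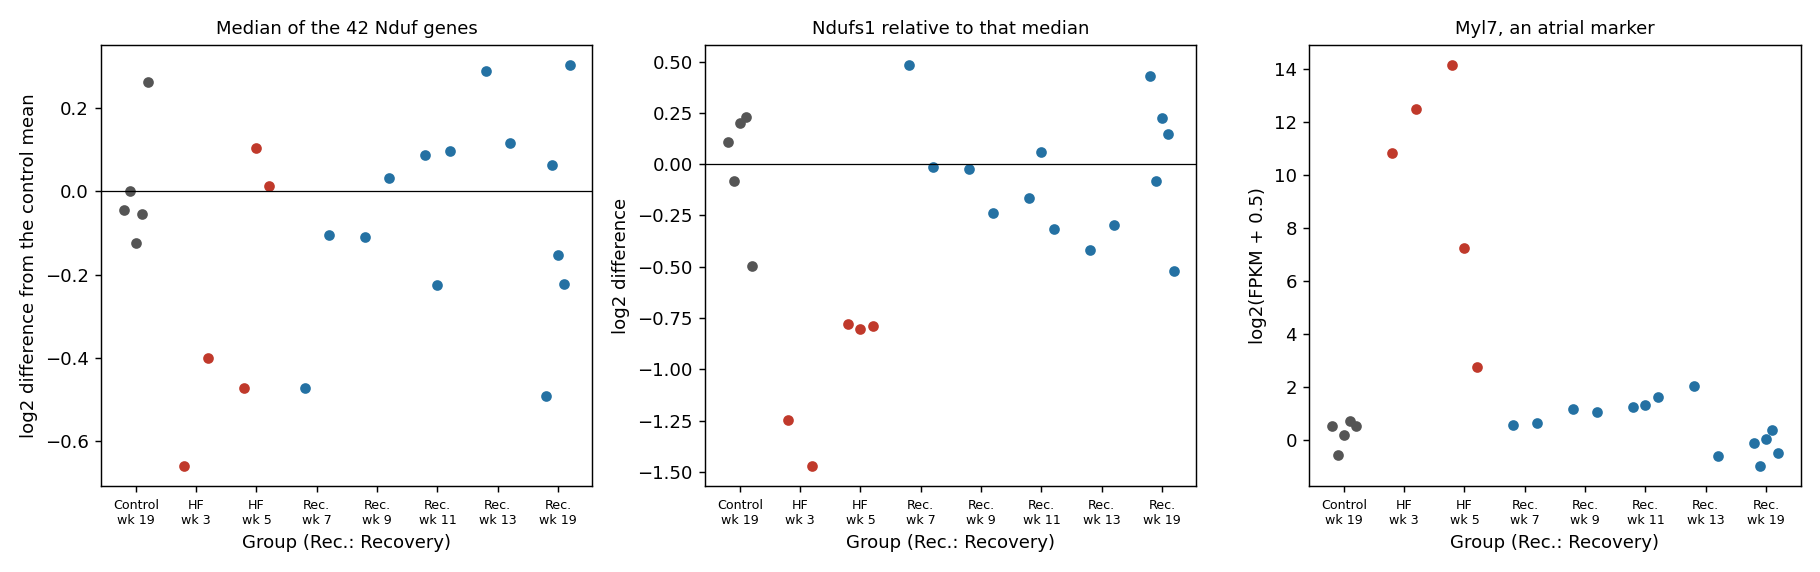
For each of the 24 libraries by group, the median log2 difference from control over the 42 members, the level of Ndufs1 relative to that median, and log2 Myl7. The member median varies within groups, from -0.47 to 0.10 in HF week 5 and from -0.49 to 0.30 in Recovery week 19, while Ndufs1 relative to it is lowest in the 5 HF libraries.

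HF week 3 was compared with the same controls, which asks how the heart stood in the middle of induction. Here 22 members were lower and 2 higher (limma, adjusted p under 0.05), against 27.6% lower and 23.1% higher over all genes. The members' median difference was -0.57, where all genes had -0.05, and 36 of 42 members were below control. Of the N module 6 of 10 were lower and 1 higher, of the Q module 3 of 6 lower, of the proximal arm 5 of 9, of the distal arm 4 of 11 and of the assembly factors 3 of 4. The largest falls were those of Ndufs1, Ndufa10 and Ndufa3.

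Ndufs1 read 40.2 and 41.3 FPKM in the 2 HF week 3 libraries, below every other library. Its log2 difference from control was -1.89 (SE 0.13, limma adjusted p = 6.82e-09). Ndufa10 read 69.6 and 150.6 FPKM and differed by -1.86 (SE 0.24, limma adjusted p = 7.21e-06). Ndufa3 read 980 and 5165 FPKM, so that its libraries differed from each other far more than the 5 controls did, and its log2 difference was -1.81 (SE 0.43, limma adjusted p = 0.00201). Without the first HF week 3 library it was -0.61. At the NADH end of the complex, Ndufv1 differed by -0.66 and Ndufv2, which holds an iron-sulfur cluster, by -0.58, both lower. In the Q module Ndufs8, which holds a pair of iron-sulfur clusters, differed by -0.57 and was lower, while Ndufs7 at -0.49 and Ndufs3 at -0.33 did not pass. Of the assembly factors Ndufaf2 fell by 1.21, Ndufaf1 fell by 1.05 and Ndufaf3 fell by 0.45, with Ndufaf4 at 0.04. Ndufa4 fell by 1.06, with 1869 and 3725 FPKM in the 2 libraries. The 2 that rose were Ndufa4l2, at 68.0 and 48.6 FPKM against 30.3 to 44.0 in the controls (log2 difference 0.66, limma adjusted p = 0.00459), and Ndufa2 of the N module (0.61, limma adjusted p = 0.0457).

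These counts rested on the first HF week 3 library. It had 12816 genes above 0 where the other 23 libraries had 16339 to 18091, and its correlation with its partner was 0.885 across genes. Without it, 5 members were lower and 0 higher, among them Ndufs1, Ndufa10, Ndufc2 and Ndufv1. The members' median was then -0.40. That fit rests on 1 HF week 3 library, and no share over all genes is given for it. The 10 highest genes took 19.8% of the summed FPKM in the first library and 37.5% in the second, against 14.6% to 15.6% in the controls. Myh6 read 37546 and 301793 FPKM in the 2 libraries, against 0 in every control. The part of this in the members' values was not tested. Both libraries held atrial markers, with Myl7 at 1805 and 5773 FPKM and a summed level of 7737 and 14050 FPKM, although Nppa and Bmp10 of that list were at 0 in both. Of the other marker lists, 6 of 8 fibroblast, 5 of 7 endothelial, 3 of 7 macrophage and 2 of 5 smooth muscle markers were higher in HF week 3, with 1 lower in each of the last 3 lists, and of 12 cardiomyocyte markers 4 were lower, Actn2, Pln, Ryr2 and Tnnt2 (limma, adjusted p under 0.05). The 3 called higher, Mb, Myh6 and Myl2, were listed at 0 in every control and are not read as a rise. Of the brown fat list 1 of 3 was higher, Ucp1 at 13.2 and 1.13 FPKM, and 1 lower, Cox8b at 3457.5 and 10933.7 FPKM against 11912 to 17719 in the controls. The part of these RNAs in the members' values was not tested. In the fit centred on the members' median level, 12 members were higher and 7 lower in HF week 3, where 46.8% of all genes were higher and 6.70% lower. That centring again places members on both sides by construction. Set directly against HF week 5, 10 members were lower and 0 higher in HF week 3, against 13.1% and 8.28% of all genes, and without the first HF week 3 library 1 member was called.

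**Figure D4:**
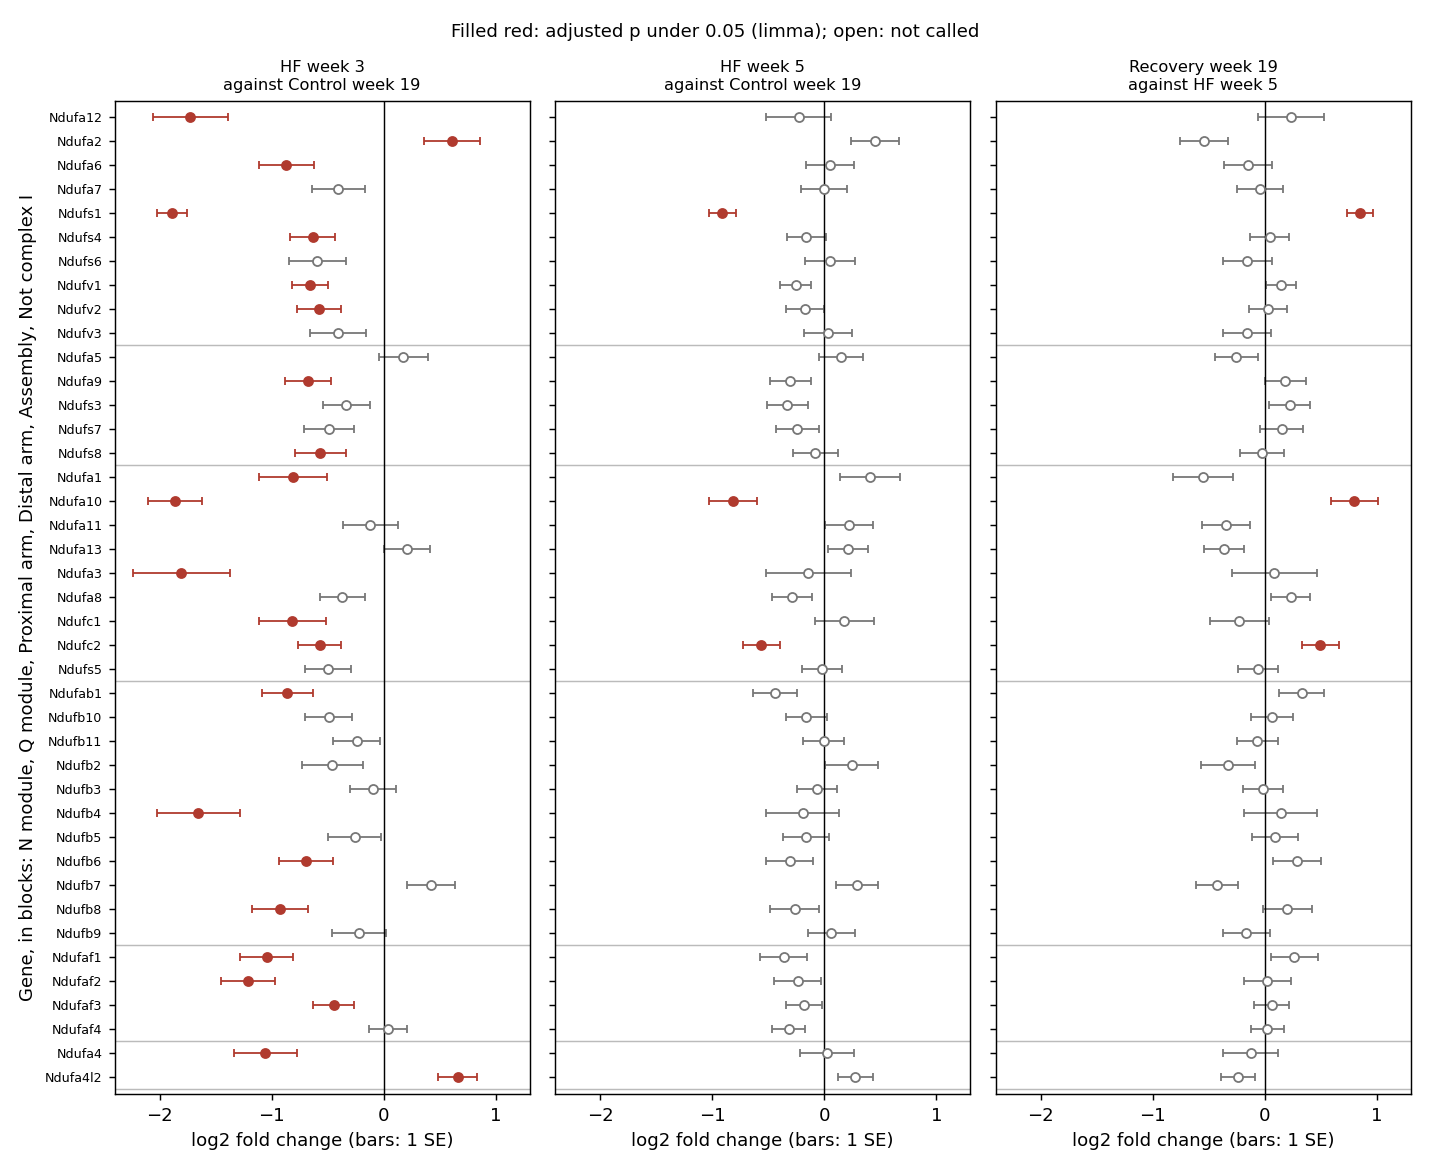
Log2 difference (± SE) of 41 of the 42 members, grouped by role, in HF week 3 against Control week 19, HF week 5 against Control week 19 and Recovery week 19 against HF week 5. Ndufs1 and Ndufa10 lie lowest in both HF comparisons and highest in the recovery comparison.

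The first 2 weeks after withdrawal were examined by setting Recovery week 7 against HF week 5. Of the members 2 were higher and 1 lower (limma, adjusted p under 0.05), where 8.05% of all genes were higher and 6.75% lower. Under quantile normalization 4 were higher and 1 lower, and after the GC and length correction 3 and 0, with Ndufc2 among the higher in both. No share over all genes is given for these fits. The members' median difference was -0.21, with 31 of 42 lower at week 7, and it was 0.03 under quantile normalization and 0.07 after the GC and length correction. The 10 highest genes took 27.9% and 29.0% of the summed FPKM at Recovery week 7 against 17.4% to 18.8% in HF week 5, with Myh6 at 106008 and 143712 FPKM against 0 in every HF week 5 library, and the part of this in the members' values was not tested. Ndufs1 read 153.8 and 140.2 FPKM, above all 3 HF week 5 libraries and inside the control range. It differed by 0.86 (SE 0.15, limma adjusted p = 0.00148). Ndufa10 read 366 and 383 FPKM, likewise above all 3, and differed by 0.82 (SE 0.26, limma adjusted p = 0.0434). Ndufc2 read 459.9 and 544 FPKM, a log2 difference of 0.35 that did not pass (limma adjusted p = 0.262). The member that fell was Ndufa1 of the proximal arm, which read 683 and 1294 FPKM against 1807, 2122 and 2176.5 (-1.11, SE 0.33, limma adjusted p = 0.0326). After the GC and length correction Ndufa1 differed by -0.54 and did not pass (limma adjusted p = 0.0633), nor did it with no filter on low values (limma adjusted p = 0.0864). Ndufa1 also lost the call when any of the 3 HF week 5 libraries or the first Recovery week 7 library was left out, and Ndufa10 when the first or the third HF week 5 library or either Recovery week 7 library was, and with no filter (limma adjusted p = 0.102). Ndufs1 passed in each of these fits. The first Recovery week 7 library had a member median of -0.47 relative to control and the second -0.10. When only these 2 groups were fitted, 0 members passed in either direction, and Ndufs1 had an adjusted p of 0.0815 (limma). This comparison and that of week 19 share the HF week 5 libraries.

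Weeks 7 to 13 together, 9 libraries, were then set against the 5 controls. None of the 42 members passed the test (limma, adjusted p under 0.05), with 0.0549% of all genes higher and 0.0157% lower. At an unadjusted p under 0.05, 1 member was higher, Ndufa4l2 at 0.30, and 0 were lower, where 3.36% and 3.53% of all genes were. The members' median difference was -0.03. Ndufs1 lay between 130.7 and 153.8 FPKM over these 9 libraries, all inside the control range of 129.6 to 172, and differed by -0.13 (limma adjusted p = 0.841). Library medians of the members ran from -0.47 in Recovery week 7 to 0.29 in Recovery week 13. The 10 highest genes took 27.9% to 37.4% of the summed FPKM of these libraries against 14.6% to 15.6% in the controls, and the part of this in the members' values was not tested.

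After 14 weeks without the agents, Recovery week 19 was set against HF week 5. The Recovery week 19 mice were also 14 weeks older, so age and recovery cannot be told apart here. Of the members 3 were higher and 0 lower (limma, adjusted p under 0.05), against 12.3% and 12% of all genes. The higher count was 7 under quantile normalization and 8 after the GC and length correction, where 15.3% and 15.5% of all genes were higher. At an unadjusted p under 0.05 it was 4 and 2, against 17.5% and 19.3%. The 3 were the genes that had been lower in HF week 5, and both comparisons share the HF week 5 libraries. Ndufs1 read 146, 150.5, 160.1, 145 and 131 FPKM at week 19, above every HF week 5 library. It differed by 0.85 (SE 0.12, limma adjusted p = 0.00012), and passed in all 18 alternatives. Ndufa10 read 316, 423, 373, 341 and 409 FPKM and differed by 0.80 (SE 0.21, limma adjusted p = 0.0102). Ndufc2 read 409.7, 670.0, 512, 529 and 689 FPKM, the first of these being inside the HF week 5 range, and differed by 0.50 (SE 0.16, limma adjusted p = 0.0337). Without the first HF week 5 library Ndufa10 differed by 0.52 (limma adjusted p = 0.108) and Ndufc2 by 0.38 (limma adjusted p = 0.182). Ndufc2 passed in 11 of 18 alternatives, and it was also lost without the third HF week 5 library, without the second or the fifth Recovery week 19 library, with no filter, with only the groups compared and centred on the members' median level (limma adjusted p between 0.0541 and 0.11). In this comparison 4 of 4 tested atrial, 4 of 5 smooth muscle, 3 of 8 fibroblast and 3 of 7 endothelial markers were lower, and their part in the members' values was not tested. The fit centred on the members' median level again places members on both sides by construction. In it 2 members were higher and 6 lower, where 4.26% and 8.07% of all genes were. The 2 were Ndufs1 at 0.70 and Ndufa10 at 0.65.

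Recovery week 19 and Control week 19 were matched in age. None of the 42 members passed (limma, adjusted p under 0.05), and of all genes 0.0235% were higher and 0% lower. At an unadjusted p under 0.05, 0 members were higher and 1 lower, Ndufaf4 at -0.29, where 2.01% and 0.862% of all genes were. The means of 40 of 42 members lay below control, with a median of -0.10 and a range of -0.29 to 0.04. The 5 library medians at week 19 were -0.49, 0.06, -0.15, -0.22 and 0.30, a spread wider than that difference. Ndufs1 differed by -0.06.

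Among the members, those with longer transcripts had the lower log2 differences in HF week 5, which is given as a description with no test. Over the 42 members, Spearman's rho between the log2 difference from control and transcript length was -0.64, where over 11761 genes with a length (92.2% of those tested) it was -0.09. The median difference was 0.05 for the 15 members under 700 bases, -0.12 for the 14 of 700 to 1400 bases and -0.30 for the 13 over 1400 bases. In Recovery week 19 against HF week 5, which shares those libraries, rho was 0.56 and the 3 medians were -0.15, 0.02 and 0.18. The points are genes of the same libraries and are no independent replicates. In HF week 3 against control rho was -0.12. In Recovery week 7 against HF week 5, which also shares the HF week 5 libraries, rho was 0.70, where over all genes with a length it was 0.18. The 3 medians there were -0.53, -0.21 and 0.12.

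**Figure D5:**
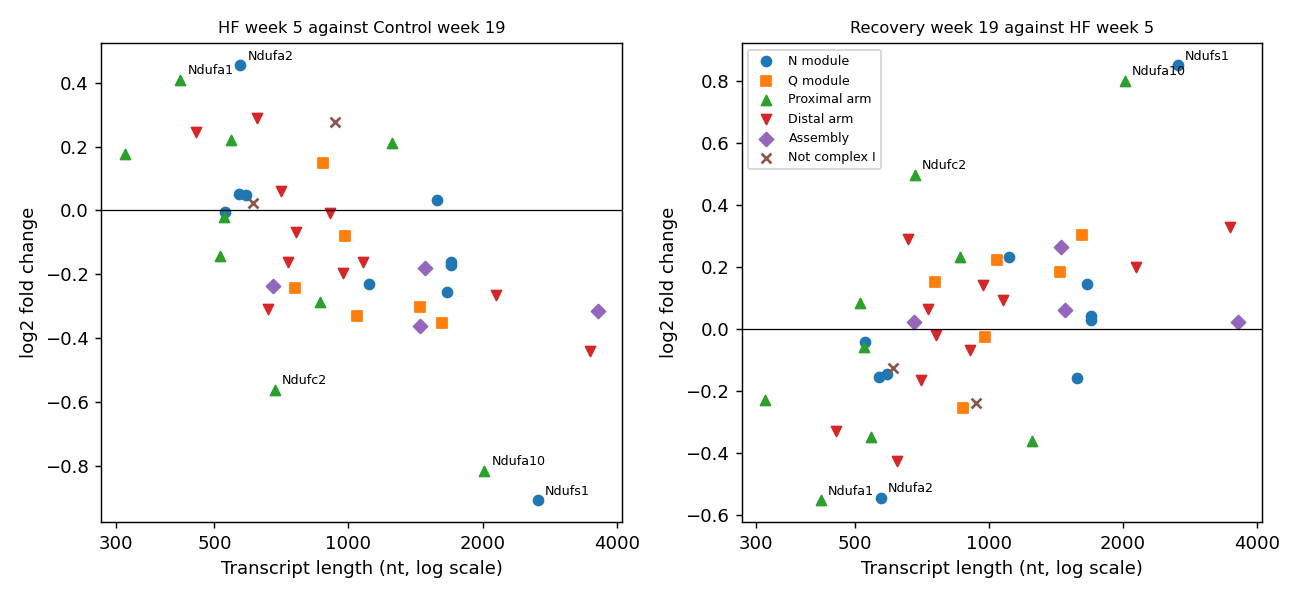
Log2 difference of the 42 members against transcript length (bases, log axis) in HF week 5 against Control week 19 and in Recovery week 19 against HF week 5. The members over 1400 bases have a median of -0.30 in the former and 0.18 in the latter.

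Further genes of the pathway were taken from lists, which like the members were chosen with results of these data known, and the genes named from them were picked after their values were seen. Their counts stand beside the 12.4% of all genes that were lower in HF week 5 than control and the 12.3% that were higher in Recovery week 19 than HF week 5. Of 8 assembly genes without the Nduf prefix, 4 were lower at HF week 5 relative to control (limma, adjusted p under 0.05), among them Acad9, which works with the early assembly intermediates, at -0.48. Without the first HF week 5 library 1 of 8 was lower, and Acad9 stood at -0.37 (limma adjusted p = 0.0521). In Recovery week 19 against HF week 5, 3 of 8 were higher, and 0 without that library. Of 14 regulators of nuclear genes for mitochondria, 7 were lower in HF week 5 and 0 higher, with a median of -0.52. Ppara, the receptor that switches on fatty acid oxidation, fell by 1.48 (SE 0.19, limma adjusted p = 7.76e-05), with 1.64, 2.60 and 2.23 FPKM against 4.56 to 8.21 in the controls. Ppargc1a, a coactivator of mitochondrial biogenesis, fell by 0.93 (SE 0.32, limma adjusted p = 0.0393), and Esrra, its receptor partner, fell by 0.71. Without the first HF week 5 library Ppara stood at -1.33 (limma adjusted p = 0.0012), Esrra at -0.54 (limma adjusted p = 0.0186) and Ppargc1a at -1.01, which did not pass (limma adjusted p = 0.0884). At week 19 against HF week 5, 7 of the 14 were higher. Without the first HF week 5 library the counts were 5 lower and 4 higher. In the age-matched comparison at week 19, 0 of the 14 passed.

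The other respiratory complexes were counted in the same fits. Of 4 complex II subunits 3 were lower in HF week 5 and 3 higher at week 19 against HF week 5, and both counts stood without the first HF week 5 library. Of 9 complex III subunits 2 were lower and then 2 higher, and of 15 complex V subunits 4 were lower and then 3 higher. Without that library 1 and 1 of complex III and 2 and 2 of complex V passed. Under quantile normalization 6 complex III and 11 complex V subunits were lower in HF week 5, where 15.4% of all genes were. None of 16 tested complex IV subunits passed in either comparison (3 were lower in HF week 5 under quantile normalization), while 10 of them were lower in HF week 3, where 27.6% of all genes were, and 0 once its first library was left out. Of the complex I subunits encoded by mitochondrial DNA the table gave 1 of those listed, mt-Nd4, at 0 in every library but those of HF week 3, where it read 1293.0 and 10081.1 FPKM, so that no fold is given.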

How the data were processed

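Polyadenylated RNA of mouse hearts was sequenced in paired ends. The authors aligned the reads to mm9 with TopHat2 and deposited FPKM per gene as computed with Cuffdiff, which scales for depth and transcript length. The table held 29955 genes. 24 libraries in 8 groups were used. The 5 columns named for control week 5 were not used, since the labels list 4 such samples. Of Recovery week 9, 2 columns were used and 3 samples are labelled. Nothing states how the columns relate to separate mice, so p-values measure the spread between these libraries.

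Genes averaging 0.5 FPKM or more, 12759 in number, were fitted with limma 3.58.1 (R 4.3.3) on log2(FPKM + 0.5), with a mean per group, 1 shared spread (16 residual degrees of freedom) and a mean-variance trend. A gene was called at a Benjamini-Hochberg adjusted p under 0.05, two-sided. Fold changes are on the log2(FPKM + 0.5) scale, which understates changes of low genes. Several comparisons share libraries. The scripts were tested on simulated data.

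Absolute depth is unknown, and no counting interval is given. Steps in the low values gave relative depths from 0.763 to 1.39 of the first control library, with no value for the first HF week 3 library.

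The members, the gene lists and the promoters shown were chosen with earlier results of these data known. Values were printed for the core subunits, the assembly factors, Ndufa4 and Ndufa4l2, the highest 5 and lowest 3 by mean, and the called members with the largest changes (up to 5 or 3 each way). The values of 1 member are not reported here, and it enters only the counts, the medians and correlations over all members, and the plot against length, where it is not named. The settings varied were the pseudocount (0.1 and 1), the filter (none, or a mean of 1 FPKM), median centring, quantile normalization, a loess correction for GC and length (span 0.3), unadjusted p, only the groups compared, and leaving out libraries. Centring on the Nduf median, HF week 3 minus HF week 5, and the gene lists without the first library of HF week 5 or of HF week 3 were added after the data were seen. Transcript lengths and shared stretches came from GENCODE M21 (GRCm38), not the authors' build, and promoters from RefSeq.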

Additional observations from a re-analysis of the deposited data

Results flagged for a closer look

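In the fifth Control week 19 library, 11 members lay farther from the other 4 controls than Dixon's 95% value allows, of 86 groups of values tested. Chance marks about 1 in 20 independent groups, but these 11 share 1 library and are not independent. Its member median was 0.26 (log2) relative to the control mean. That library read 2152 FPKM for Ndufa1, 296.6 for Ndufa11, 2404 for Ndufa2, 1568 for Ndufa6, 3054 for Ndufb2, 954.7 for Ndufb5, 3184 for Ndufb9, 266.1 for Ndufs4, 705.3 for Ndufs8 and 497.7 for Ndufv2, each above the other controls. Ndufa10 at 313.2 FPKM was below them. Without this library the HF week 5 comparison had 3 lower members, as with it, and 1 was higher (Ndufa2) in place of 0, while in HF week 3 18 were lower in place of 22.

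HF week 3 and HF week 5 differed from each other in 10 members (limma, adjusted p under 0.05), all lower at week 3, where 13.1% of all genes were lower and 8.28% higher. The log2 differences, HF week 3 minus HF week 5, were -1.67 for Ndufa3, -1.50 for Ndufa12, -1.46 for Ndufb4, -1.22 for Ndufa1, -1.08 for Ndufa4, -1.05 for Ndufa10, -0.99 for Ndufc1, -0.98 for Ndufaf2, -0.98 for Ndufs1 and -0.92 for Ndufa6. Without the first HF week 3 library 1 member was called.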

How the results depend on the processing

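Of 351 counts and medians recomputed under the alternatives, 305 stayed within 1.5 times or within the spread between libraries and 46 moved. Of 4914 values for single members, 4716 stayed on their side of the threshold, 84 lost the call, 108 gained it and 6 of called members changed sign. Sign changes of members that were not called are not counted here. With no filter on low values, 1 member was higher in HF week 3 than in control, while from HF week 5 to Recovery week 7 it was 1 higher and 0 lower. Median centring and fitting only the groups compared each left 1 higher in HF week 3. Quantile normalization gave 14 lower in HF week 5 against control, 4 higher with a median of 0.0284 from HF week 5 to Recovery week 7 and 7 higher from HF week 5 to Recovery week 19. The GC and length correction gave 12 lower in HF week 5, 8 higher from HF week 5 to Recovery week 19, and in Recovery week 7 a lower count of 0 with a median of 0.0744. Fitting only the groups compared left 0 higher and 0 lower in Recovery week 7. At an unadjusted p under 0.05 the counts were 1 higher and 6 lower in HF week 5 against control, 3 lower in Recovery week 7, 1 higher in Recovery weeks 7 to 13 against control, 2 lower from HF week 5 to Recovery week 19 and 1 lower in the latter than in control. Centring on the Nduf median gave 12 higher and 7 lower with a median of 0.0899 in HF week 3, 7 higher with a median of 0.0688 in HF week 5, and 6 lower from HF week 5 to Recovery week 19. Under that centring, among the members called in HF week 3, Ndufaf3 (0.21), Ndufc2 (0.0862), Ndufs4 (0.025), Ndufs8 (0.0936), Ndufv1 (0.001) and Ndufv2 (0.0774) changed sign. Such centring places members on both sides by construction. Without both HF week 3 libraries 2 were lower in Recovery week 19 against HF week 5. The cause of these changes was not tested.

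Leaving out each library in turn gave, in HF week 3 against control, 0 to 2 higher, 5 to 24 lower and a median of -0.66 to -0.40. In HF week 5 against control it gave 0 to 1 higher, 1 to 5 lower and -0.25 to 0.05, and from HF week 5 to Recovery week 7 1 to 2 higher, 0 to 1 lower and -0.38 to -0.01. Recovery weeks 7 to 13 against control gave 0 and 0 and -0.08 to 0.01. In Recovery week 19 the ranges were 1 to 4 higher, 0 to 3 lower and -0.14 to 0.12 against HF week 5, and 0 and 0 and -0.20 to 0.01 against control. No paired analysis was possible because the columns carry no replicate numbers that the labels tie across groups. A group of 2 with 1 library left out is assumed to vary like the other groups. Without counts, depth and overdispersion could not be modelled, and 2 or 3 libraries in the HF groups limit the precision.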
